A study of Homo sapiens with 3 samples.

Results

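The genes described here encode matricellular and fibre glycoproteins, the adhesive and fibre-forming proteins that cells secrete around themselves beside the collagens. They were chosen by name as FN1, SPARC, TNC, THBS1, THBS2, FBN1, FBN2, FBLN1, TGFBI and ELN, 10 genes in all. Of these, 9 were found among the 26108 genes (24254 gene symbols) of the expression table, and ELN, the elastin gene, was not analysed here. All 9 passed a filter on low values that kept 12422 symbols.

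Fibronectin and the fibrillins form networks on which other matrix proteins and latent growth factors are deposited. Matricellular proteins such as the thrombospondins, tenascin-C and SPARC contribute less to the structure of the matrix than to signals at the cell surface, through integrins, syndecans and growth factors. In the liver, hepatic stellate cells that have become myofibroblasts are the main source of such proteins in scar tissue.

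The study asked how FGF19, a hormone-like fibroblast growth factor of the gut and bile acid axis, alters gene expression in LX-2, an established line derived from human hepatic stellate cells. Poly(A) RNA was sequenced from 1 library of cells given vehicle, 1 given recombinant human FGF19 (rhFGF19) at 50 ng/mL and 1 at 100 ng/mL, named the lower and the higher dose here. Sample titles and agent fields were used for the doses; the free-text descriptions exchange them, with 100 ng/mL for the library titled 50 and 50 ng/mL for the library titled 100. The exposure was 24 h in the design text and in the study's own account of these libraries, while the descriptions of those titled 50 and 100 give 72 h and 73 h. All 3 libraries come from a single cell line, and every comparison is between single libraries with no replicate check.

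Expression was given as FPKM, a fragment count divided by transcript length and library total, which sets genes of different length on 1 scale. Read counts were not kept in these values, so depth is unknown. The identity of the cells was checked against marker genes. Of 13 stellate cell and myofibroblast markers 7 passed the filter, led by VIM (439, 654 and 649 FPKM in vehicle and at the lower and the higher dose), TIMP1 (308, 184 and 193) and COL1A1 (78.4, 108 and 104). ACTA2, the smooth muscle actin of myofibroblasts, stood at 8.55, 8.01 and 7.74 FPKM. LRAT, the retinol esterase of quiescent stellate cells, was listed at 0 in every library, and COL1A2, PDGFRA, DES, RGS5 and GFAP were each at 0.23 FPKM or less. Among markers of other cells, 5 of 5 for hepatocytes, 3 of 4 for epithelium, 4 of 4 for endothelium and 4 of 5 for blood cells were in the table used. Of these, in that order, 2, 1, 0 and 2 passed the filter. Their highest genes were SERPINA1 (8.93, 9.62 and 9.11 FPKM), ALB (2.16, 2.49 and 1.89), CLDN4 (1.07, 0.76 and 1.02), CD68 (47.5, 44.2 and 39.8) and CD14 (4.28, 2.76 and 2.54). PECAM1 of endothelium, CDH1 of epithelium and HBB of red cells were each at 0.04 FPKM or less. TEK, the highest of the endothelial markers, was at 0.24, 0.56 and 0.58 FPKM, a mean of 0.46 that did not pass the filter.

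The vehicle library stood apart from both rhFGF19 libraries across the whole table. It had 8890 genes at 1 FPKM or more, against 10925 at the lower and 10894 at the higher dose, and its values summed to 302243 FPKM against 276690 and 281606. Fold changes were taken as differences of log2(FPKM + 0.1), and a gene was counted as having risen or fallen when it lay past 2-fold. The median symbol lay at 0.62 at either dose on that scale. Among symbols of at least 1 FPKM in all 3 libraries the median log2 ratio to vehicle was 0.23 at the lower and 0.22 at the higher dose.

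At the lower dose 5 of the 9 lay past 2-fold above vehicle, against 39.5% of the 12422 symbols tested, and 0 of 9 were more than 2-fold lower, against 1.75%. At the higher dose the counts were again 5 and 0 of 9, against 38.6% and 1.47% of all symbols. Passing 2-fold upward was common in the table, so these counts by themselves do not set the 9 genes apart. The genes that rose at either dose were FN1, THBS1, THBS2, FBN1 and FBN2, that is fibronectin, both thrombospondins and both fibrillins. SPARC, TNC and TGFBI were higher than vehicle by less than 2-fold, and FBLN1 had its highest value in vehicle. The median log2 fold change of the 9 was 1.07 at the lower and 1.002 at the higher dose, beside 0.62 over all symbols in each comparison. Both comparisons use the same vehicle library, so they are not separate evidence of a direction. In RNA from whole cultures, fewer cells of a kind and less RNA per cell cannot be told apart.

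**Figure D1:**
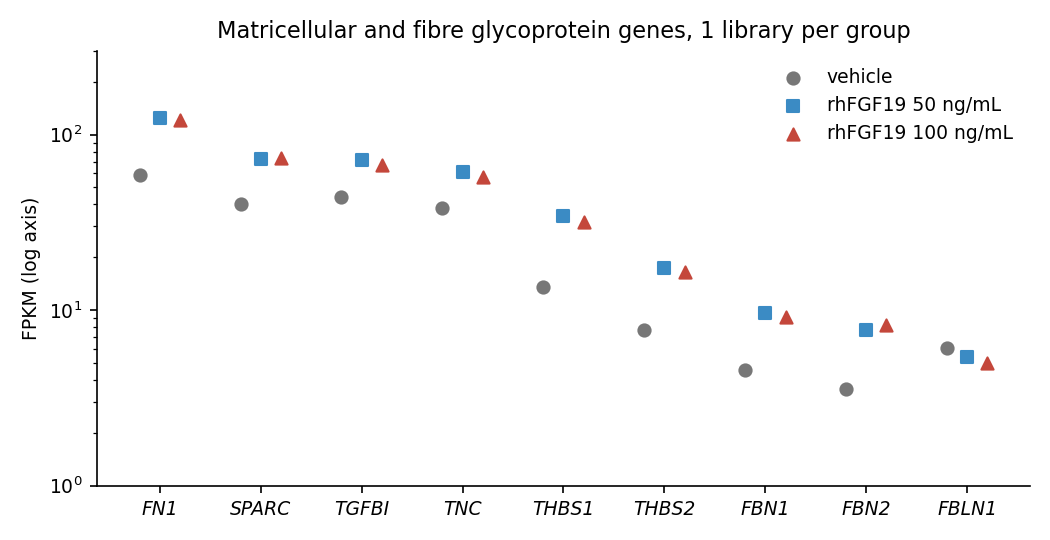
FPKM on a log axis for the 9 genes, ordered by their mean, with 1 point for each library (circle, vehicle; square, 50 ng/mL rhFGF19; triangle, 100 ng/mL rhFGF19). The rhFGF19 points lie close together and above vehicle for 8 genes, while FBLN1 runs from 6.06 in vehicle to 5.02 at 100 ng/mL.

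Together the 9 genes summed to 216 FPKM in vehicle, 405 at the lower and 390 at the higher dose, which is 0.0716%, 0.146% and 0.138% of each library's sum. The plot of FPKM by library shows the order of their levels per length. FN1 led in every library, ranking 926 among the symbols tested in vehicle, 322 at the lower and 340 at the higher dose. TGFBI, SPARC and TNC followed in vehicle, within a narrow range of 38.3 to 43.9 FPKM. The thrombospondins came next, and the fibrillins and FBLN1 were lowest. FBLN1 was above both fibrillins in vehicle and below both after rhFGF19. SPARC and TGFBI also exchanged places, with TGFBI ahead in vehicle and SPARC ahead at either dose.

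FN1 encodes fibronectin, the dimeric glycoprotein that cells assemble into fibrils through integrins. The gene (ENSG00000115414, chr2:215360440-215436073, minus strand) measured 58.6 FPKM in vehicle, 125 at the lower and 121 at the higher dose. Gene coordinates are those of the table, which lie on GRCh38. Both rhFGF19 libraries were thus well above vehicle and close to each other. The log2 fold change was 1.09 at the lower and 1.04 at the higher dose. It was short of 2-fold, at 0.86 and 0.82, with the median ratio of each rhFGF19 library to vehicle set to 0. A loess trend of fold change on GC content or length was also fitted across all symbols. Length was the median over a gene's listed transcripts, short ones included. Removing a trend also takes out the shift shared by all symbols. At the lower dose the median over all symbols went from 0.62 to 0.046 (length) or 0.0071 (GC, longest coding transcript). With the length trend removed FN1 was at 0.34 and 0.32. With the GC trend removed it was at 0.40 and 0.37 (longest coding transcript) or 0.31 and 0.28 (median over all transcripts). In the values as given, the ratio of FN1 to the other abundant members also changed. FN1 to TNC went from 1.53 in vehicle to 2.03 and 2.10, FN1 to TGFBI from 1.33 to 1.73 and 1.81, and FN1 to SPARC from 1.46 to 1.72 and 1.64. Such ratios are taken within a library and do not depend on its total, but their direction depended on the GC trend. With that of the longest coding transcript removed, TNC (0.48 and 0.39) and TGFBI (0.49 and 0.39) lay above FN1, and SPARC (-0.17 and -0.13) below. With that over all transcripts removed, SPARC (0.79 and 0.81) and TNC (0.46 and 0.38) lay above FN1, and TGFBI (0.098 and 0.0059) below.

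The promoter windows of 4 members are printed as examples: FN1, the most abundant, THBS1 and THBS2, a pair of paralogs that both rose, and FBLN1, the member that was below vehicle. Each window covers 250 bases before and 50 bases after the RefSeq start site on GRCh38.p14, read 5′ to 3′ on the gene's own strand: FN1 from chr2:215436019-215436318 (minus), THBS1 from chr15:39580829-39581128 (plus), THBS2 from chr6:169253797-169254096 (minus) and FBLN1 from chr22:45502633-45502932 (plus). Capitals mark matches, on either strand, to TATAAA, known as the TATA box, to CCAAT, the box of that name, to GGGCGG, the GC box, to TGANTCA, bound by AP-1, and to TGACGTCA, the cAMP response element.
FN1: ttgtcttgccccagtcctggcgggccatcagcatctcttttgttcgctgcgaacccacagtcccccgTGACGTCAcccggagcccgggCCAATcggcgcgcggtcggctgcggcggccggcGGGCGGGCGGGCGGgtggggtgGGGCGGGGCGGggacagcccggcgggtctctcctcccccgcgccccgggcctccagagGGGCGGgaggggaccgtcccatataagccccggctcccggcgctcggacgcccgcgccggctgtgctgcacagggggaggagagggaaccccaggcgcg
THBS1: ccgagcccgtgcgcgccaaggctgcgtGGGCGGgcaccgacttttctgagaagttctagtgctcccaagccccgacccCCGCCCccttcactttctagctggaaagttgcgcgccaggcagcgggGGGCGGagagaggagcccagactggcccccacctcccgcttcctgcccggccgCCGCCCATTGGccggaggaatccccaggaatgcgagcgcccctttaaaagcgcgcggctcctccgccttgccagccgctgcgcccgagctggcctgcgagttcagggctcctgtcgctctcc
THBS2: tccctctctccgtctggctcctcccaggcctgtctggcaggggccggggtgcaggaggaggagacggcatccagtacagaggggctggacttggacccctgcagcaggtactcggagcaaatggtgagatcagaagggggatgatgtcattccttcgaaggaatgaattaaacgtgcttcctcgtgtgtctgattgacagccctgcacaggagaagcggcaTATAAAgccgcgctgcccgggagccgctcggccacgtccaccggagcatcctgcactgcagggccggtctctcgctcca
FBLN1: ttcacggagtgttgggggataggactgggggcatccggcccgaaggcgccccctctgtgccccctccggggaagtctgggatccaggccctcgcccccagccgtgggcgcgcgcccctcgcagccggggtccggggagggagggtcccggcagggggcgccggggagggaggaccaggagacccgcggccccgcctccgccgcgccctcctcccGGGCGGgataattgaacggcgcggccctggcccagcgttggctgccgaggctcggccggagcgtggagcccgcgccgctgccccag

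The FN1 window held 6 matches to the GC box, 1 to the CCAAT box and 1 to the cAMP response element at 183 bases before the start site. Several of the FN1 GC boxes overlap one another, 3 in one run and 2 in another. THBS1 held 4 GC boxes and 1 CCAAT box, and one GC box adjoins the CCAAT box so that their capitals form a single run. THBS2 held only the TATA box, at 29 bases before the start site, and FBLN1 only 1 GC box, at 36 bases before it. Promoter windows were found for all 9 analysed members. The GC box was in 6 of the 9 against 45.0% of 35116 windows, the CCAAT box in 3 (FN1, THBS1 and FBN2) against 34.6%, and the TATA box in 1 against 11.5%. TGACGTCA was in 1 of 9 against 1.85%, and TGANTCA in 0 of 9 against 7.71%. The share of G and C in the windows ran from 57.3% in TNC to 78.0% in FBLN1, beside a median of 58.7% over all windows. Only exact matches were counted, so a near match such as the tataag in the FN1 window is not marked. The FBN2 window, chr5:128538196-128538495, lies inside the gene's span in the table and not at its 5′ end, chr5:128659185. A match is a run of letters and says nothing here about a factor.

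THBS1 encodes thrombospondin-1, a trimeric matricellular glycoprotein that binds CD47 and CD36 and can activate latent TGF-beta. The gene (ENSG00000137801, chr15:39581079-39599466, plus strand) measured 13.5 FPKM in vehicle, 34.2 at the lower and 31.9 at the higher dose. At both doses it had the largest log2 fold change of the 9 genes, 1.33 at the lower and 1.23 at the higher dose. It was also the only one of them still past 2-fold at both doses when the median ratio of each rhFGF19 library to vehicle was set to 0, at 1.10 and 1.01.

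THBS2 encodes thrombospondin-2, the paralog that forms trimers of the same kind and, with thrombospondin-1, is known as an inhibitor of vessel growth. The gene (ENSG00000186340, chr6:169215780-169254044, minus strand) measured 7.75 FPKM in vehicle, 17.4 at the lower and 16.4 at the higher dose. On the log2 scale it differed from vehicle by 1.16 at the lower and 1.07 at the higher dose. THBS1 was the more abundant paralog throughout, at 1.74 times THBS2 in vehicle, 1.97 times at the lower and 1.94 times at the higher dose. Both paralogs were past 2-fold in the values as given, but neither was once a loess trend of fold change on transcript length or GC content, fitted across all symbols, had been removed. With the length trend removed THBS1 was at 0.96 and 0.84 and THBS2 at 0.14 and 0.069. With the GC trend of the longest coding transcript removed THBS1 was at 0.17 and 0.090 and THBS2 at 0.62 and 0.55, so which paralog moved more depends on the setting.

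FBN1 encodes fibrillin-1, the main backbone of extracellular microfibrils, which carry elastin and hold latent TGF-beta complexes. The gene (ENSG00000166147, chr15:48408313-48645721, minus strand) measured 4.54 FPKM in vehicle, 9.63 at the lower and 9.19 at the higher dose. Its log2 fold change was 1.07 at the lower and 1.002 at the higher dose, the latter only just past 2-fold. FBN1 was at 0.84 and 0.78 with the median ratio set to 0, and at 0.58 and 0.52 with the length trend removed. With the GC trend over all transcripts removed it changed sign, to -0.052 and -0.10. FBN2 encodes fibrillin-2, the microfibril protein of developing tissue. The gene (ENSG00000138829, chr5:128257909-128659185, minus strand) measured 3.54 FPKM in vehicle, 7.75 at the lower and 8.25 at the higher dose. On the log2 scale it differed from vehicle by 1.11 at the lower and 1.20 at the higher dose. FBN2 and SPARC were the members whose value was higher at the higher dose than at the lower. The ratio of FBN1 to FBN2 was 1.28 in vehicle, 1.24 at the lower and 1.11 at the higher dose, so fibrillin-1 mRNA stayed the more abundant of the pair per length.

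FBLN1 encodes fibulin-1, a calcium-binding glycoprotein that associates with fibronectin, elastic fibres and basement membranes. The gene (ENSG00000077942, chr22:45502238-45601135, plus strand) measured 6.06 FPKM in vehicle, 5.38 at the lower and 5.02 at the higher dose. Its log2 fold change was -0.17 at the lower and -0.27 at the higher dose, well inside 2-fold. It was the only one of the 9 whose value was below vehicle at either dose, and it stayed below with the values rescaled to TPM (-0.044 and -0.17). With the length trend removed it was at -0.59 and -0.68. With the GC trend over all transcripts removed it turned to 0.029 at the lower dose and was at -0.082 at the higher. FN1 to FBLN1, a ratio of binding partners, was 9.67 in vehicle, 23.2 at the lower and 24.1 at the higher dose. Their log2 fold changes lay closer together with the GC trend of the longest coding transcript removed. FN1 was then at 0.40 and 0.37 and FBLN1 at -0.050 and -0.16.

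SPARC encodes a collagen-binding matricellular protein, also called osteonectin, that takes part in collagen fibril assembly. The gene (ENSG00000113140, chr5:151661096-151686975, minus strand) measured 40.3 FPKM in vehicle, 72.4 at the lower and 73.8 at the higher dose. On the log2 scale it differed from vehicle by 0.85 at the lower and 0.87 at the higher dose, short of 2-fold. With the GC trend of the longest coding transcript removed SPARC changed sign, to -0.17 and -0.13. TNC encodes tenascin-C, a large six-armed glycoprotein of wounds and scars that modulates adhesion to fibronectin. The gene (ENSG00000041982, chr9:115019575-115118257, minus strand) measured 38.3 FPKM in vehicle, 61.4 at the lower and 57.5 at the higher dose. Its log2 fold change was 0.68 at the lower and 0.59 at the higher dose. With the length trend removed TNC changed sign, to -0.13 and -0.21.

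TGFBI encodes the TGF-beta-induced protein, also called keratoepithelin, a secreted protein with fasciclin domains that links collagens to integrins. The gene (ENSG00000120708, chr5:136028988-136063818, plus strand) measured 43.9 FPKM in vehicle, 71.9 at the lower and 66.8 at the higher dose. On the log2 scale it differed from vehicle by 0.71 at the lower and 0.60 at the higher dose. In the values as given, SPARC, TNC and TGFBI thus moved by less than the thrombospondins and fibrillins. This order did not hold with a GC trend or the length trend removed.

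No strand was given for the libraries, so reads of overlapping antisense genes cannot be told apart from those of a member. Genes overlapping TNC, THBS1, THBS2 and FBN1 were listed at low values. The highest was a long noncoding RNA on the THBS1 strand, AC037198, at 0, 0.06 and 0.65 FPKM in the same order of libraries. FN1, SPARC, FBN2, FBLN1 and TGFBI had no overlapping gene in the table.

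The rhFGF19 libraries were close to each other for all 9 genes. The largest difference between them was that of TGFBI, at -0.11 on the log2 scale for the higher against the lower dose, and 0 of the 9 were more than 2-fold apart, against 1.64% of all symbols. THBS1 differed by -0.10, FBLN1 by -0.098 and TNC by -0.093, each lower at the higher dose. FBN2 differed by 0.089 in the other direction. Over all symbols the median absolute difference was 0.089, and the SD of the difference across symbols was 0.32. Each member's difference between the doses lay within that SD, a spread across genes and not between replicates. With the doses exchanged in the descriptions, no order by dose was read.

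Base composition moved with the fold changes across the table. Over the 12397 symbols with a transcript in GENCODE v29, Spearman's rho between the GC content of the longest coding transcript and the log2 fold change was -0.76 at the lower and -0.77 at the higher dose, a description across genes that share the same 3 libraries. Between the doses it was 0.063. The genes low in GC were thus higher in both rhFGF19 libraries, and the part of this in the members' values was not tested. A loess trend of fold change on GC content gives the value usual for a gene of each member's composition. Transcript length was less closely related to the fold change, with a rho of 0.18 at either dose.

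**Figure D2:**
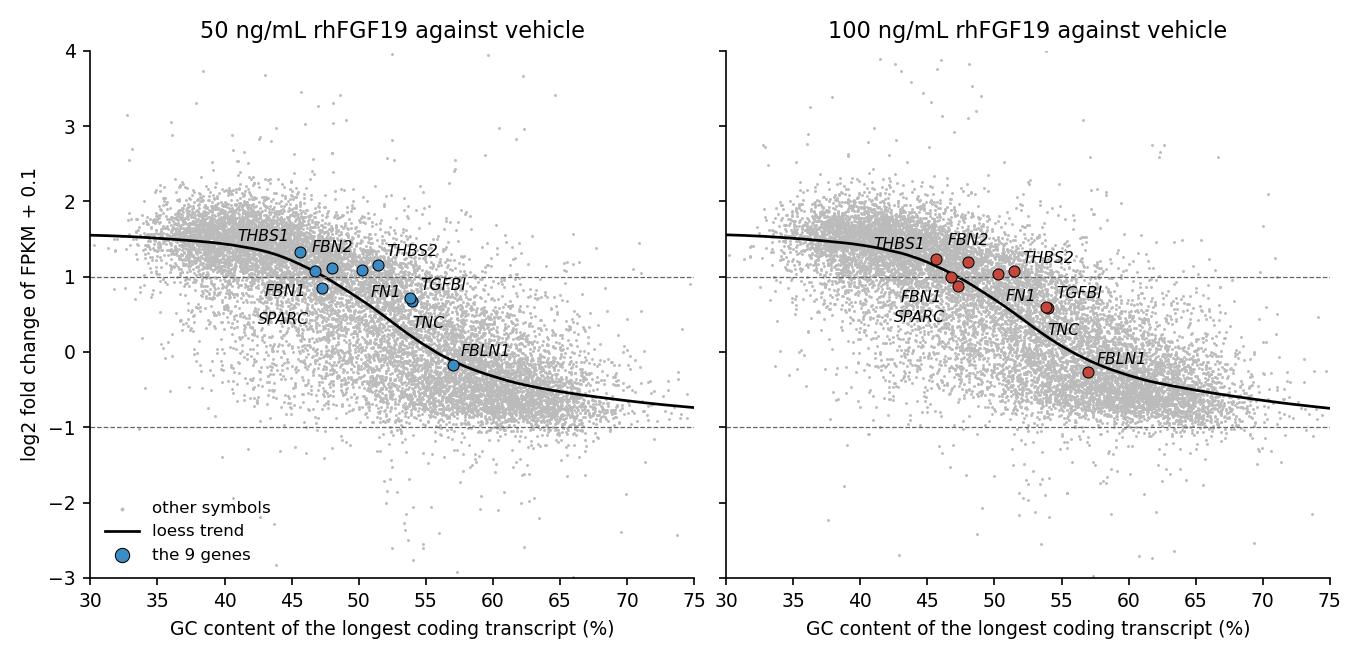
Log2 fold change against vehicle by GC content (%) of the longest coding transcript, at 50 ng/mL (left) and 100 ng/mL (right), with grey points for symbols past the filter, a black line for the loess trend, coloured points for the 9 genes and dashed lines at 2-fold. The axes leave out 37 and 29 of 12397 symbols (left and right), and the 9 genes lie on or within 0.62 of the trend at 50 ng/mL.

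The 9 genes lay between 45.6% GC (THBS1) and 57.0% GC (FBLN1), which had the highest and the lowest fold change in the plot by GC content. Between these the members did not follow the slope throughout. At the lower dose SPARC was at 0.85 at 47.3% GC. FBN1, FBN2, FN1 and THBS2, from 46.7% to 51.5% GC, were at 1.07, 1.11, 1.09 and 1.16. Over that range the trend fell from 1.07 to 0.53. THBS2 was farthest above it, by 0.62 at the lower and 0.55 at the higher dose, at 51.5% GC. Of the 879 other symbols within 1 percentage point of its GC content, 27.3% were more than 2-fold higher at the lower and 25.4% at the higher dose. The trend at that composition was thus short of 2-fold, while THBS2 was past it in the values as given.

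TGFBI lay above the trend by 0.49 at the lower and 0.39 at the higher dose, at 53.8% GC. TNC was above it by 0.48 and 0.39, at 54.0% GC. FN1 was above it by 0.40 and 0.37, at 50.2% GC. For these 3 genes the trend itself was under their own fold change, and among symbols of similar GC the share more than 2-fold higher at the lower dose was 12.2% for TGFBI and for TNC and 35.0% for FN1.

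FBN2 was above the trend by 0.17 at the lower and 0.28 at the higher dose, at 48.0% GC. THBS1 was above it by 0.17 and 0.090, at 45.6% GC, where 67.4% of 906 similar symbols were more than 2-fold higher at the lower and 67.5% at the higher dose. With the median GC content over all its transcripts, THBS1 lay 0.68 and 0.59 above the trend, so its place relative to GC content depends on the transcripts used. FBN1 lay at the trend, 0.0015 above it at the lower dose and -0.046 from it at the higher dose, at 46.7% GC. FBLN1, the member below vehicle, was -0.050 and -0.16 from the trend, at 57.0% GC. SPARC was -0.17 and -0.13 from it, at 47.3% GC, where 53.9% of 912 similar symbols were more than 2-fold higher at the lower dose.

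The choice of transcript mattered for 3 members. With GC content taken as the median over every transcript listed for a gene, short and incomplete ones included, SPARC was at 55.4% GC and 0.79 above the trend at the lower dose, THBS1 at 50.8%, and TGFBI at 51.2% and 0.098 above. THBS2 was 0.66 above, TNC 0.46 and FN1 0.31, close to their values with the longest coding transcript. With either measure 0 of the 9 genes lay more than 2-fold above or below the trend. Of all symbols, 3.08% lay more than 2-fold above the trend of the longest coding transcript at the lower dose and 5.63% below it.

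**Figure D3:**
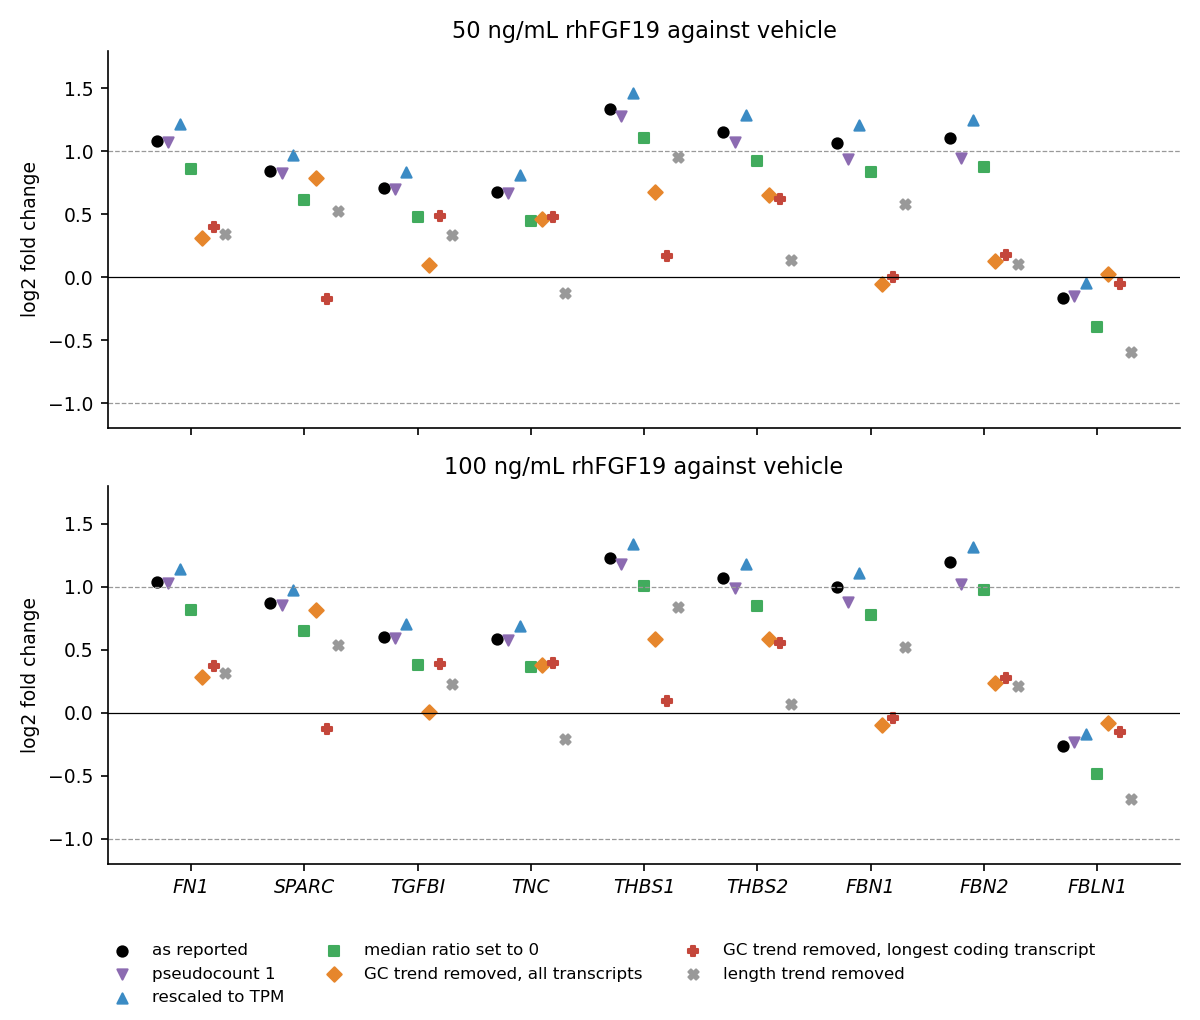
Log2 fold change against vehicle of each of the 9 genes under 7 settings (symbols in the key), at 50 ng/mL (top) and 100 ng/mL (bottom), with dashed lines at 2-fold. Values past 2-fold are seen with the FPKM values as given, with pseudocount 1, with TPM and, for THBS1 alone, with the median ratio set to 0, and 0 of the 9 pass with a GC or length trend removed, where at 50 ng/mL 3.74% (GC, all transcripts), 3.08% (GC, longest coding transcript) and 14.0% (length) of all symbols were higher.

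Scaling also bears on the counts, as the plot of the members' fold changes by setting shows. With the median ratio to vehicle set to 0, 1 of 9 genes, THBS1, was past 2-fold at each dose, against 29.8% and 29.2% of symbols higher and 6.46% and 5.03% lower. After rescaling to TPM 5 of 9 were past 2-fold at each dose, against 44.5% and 43.1%. The 8 genes above vehicle and FBLN1 below it kept those sides under both scalings.

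Annotation shared by the members was read from the terms in the table. All 9 carried collagen-containing extracellular matrix, a term of 169 tested symbols of which 24.3% were more than 2-fold higher at the lower and 21.9% at the higher dose. All 9 also carried extracellular matrix structural constituent, with 64 symbols and 21.9% higher at either dose, and extracellular matrix, with 115 symbols and 24.3% higher at either dose. The wider terms carried by all 9 were extracellular region, with 861 symbols and 30.8% and 31.0% higher, and protein binding, with 8287 symbols and 42.9% and 42.0% higher. Over all symbols the shares were 39.5% and 38.6%, and the 5 terms were not tested against them. Median GC content was 55.0% for the first of them and 50.1% for protein binding, beside 50.2% for the 9 genes. Calcium ion binding was carried by 6 members (SPARC, THBS1, THBS2, FBN1, FBN2 and FBLN1) and integrin binding by 4 (FN1, THBS1, FBN1 and TGFBI). Negative regulation of angiogenesis joined SPARC, THBS1 and THBS2.

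Other elastic fibre and microfibril genes were set beside the fibrillins, with no test between lists. Of 17 listed, 15 were in the table used and 13 passed the filter. At either dose 2 were more than 2-fold higher and 0 lower, against 39.5% and 38.6% of all symbols higher and 1.75% and 1.47% lower. The medians were 0.080 and -0.022. EFEMP1 (fibulin-3; 1.78, 6.83 and 6.02 FPKM) and LOX, the lysyl oxidase that cross-links elastin (1.90, 4.33 and 4.39), were those that rose. The most abundant were EFEMP2 (64.5, 36.2 and 37.8 FPKM), LOXL1 (38.7, 25.8 and 24.7), FBLN2 (27.4, 27.8 and 27.0) and LTBP4 (18.6, 15.2 and 14.7), all under 2-fold from vehicle. The list had a median GC content of 61.1% and lay 0.24 above the GC trend at either dose by its median, beside 0.17 and 0.28 for the 9 members.

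Other matricellular genes were counted in the same way. Of 21 listed, 14 were in the table used and 8 passed. At either dose 4 of the 8 were more than 2-fold higher and 0 lower, near the 39.5% and 38.6% of all symbols higher. The medians were 0.92 and 0.91. SPP1 (osteopontin; 0.55, 2.94 and 2.07 FPKM), FSTL1 (10.8, 27.0 and 27.3), SPOCK1 (4.63, 10.6 and 10.8) and CCN2 (connective tissue growth factor; 58.9, 120 and 124) rose at both doses. CCN1, the most abundant, measured 112, 197 and 188 FPKM, short of 2-fold. Their median lay 0.082 above the GC trend at the lower dose and 0.077 above it at the higher dose.

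Cell surface receptors that bind the members were counted next. Of 14 listed, 13 were in the table used and 8 passed. Of the 8, 4 were more than 2-fold higher at the lower dose and 3 at the higher dose, and 0 were lower. Those shares are near the 39.5% and 38.6% of all symbols higher. The medians were 0.86 and 0.81, or 0.055 and 0.21 above the GC trend. ITGB1, the beta chain of most fibronectin receptors (18.3, 59.3 and 59.8 FPKM), CD47 (1.26, 4.02 and 4.68) and ITGAV (1.29, 3.73 and 4.12) rose at both doses, and ITGB3 (5.59, 11.4 and 10.7) lay close to 2-fold at either dose, at 1.01 and 0.93 on the log2 scale. ITGA5, which pairs with ITGB1 to bind fibronectin, measured 155, 128 and 124 FPKM. SDC4 measured 131, 215 and 213, and LRP1, the endocytic receptor for thrombospondins, 13.1, 16.9 and 16.2. CD36 was at 0, 0.03 and 0.01.

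The TGF-beta pathway, which drives many of the members in fibroblasts, was taken as a list of ligands, receptors, SMADs and target genes. Of 14 listed 12 passed, with 6 more than 2-fold higher and 0 lower at either dose, beside 39.5% and 38.6% of all symbols higher, and medians of 1.09 and 1.07. TGFBR1 (2.0, 7.56 and 6.75 FPKM), TGFB2 (0.53, 2.02 and 1.95) and SMAD4 (0.88, 2.71 and 2.32) had the largest rises by the smaller of their fold changes. Abundant genes of the list that were short of 2-fold included TAGLN (223, 118 and 126 FPKM), TGFB1 (134, 93.8 and 94.0) and BHLHE40 (23.7, 43.8 and 44.8). By its median the list lay 0.16 above the GC trend at the lower dose and -0.056 from it at the higher dose.

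**Figure D4:**
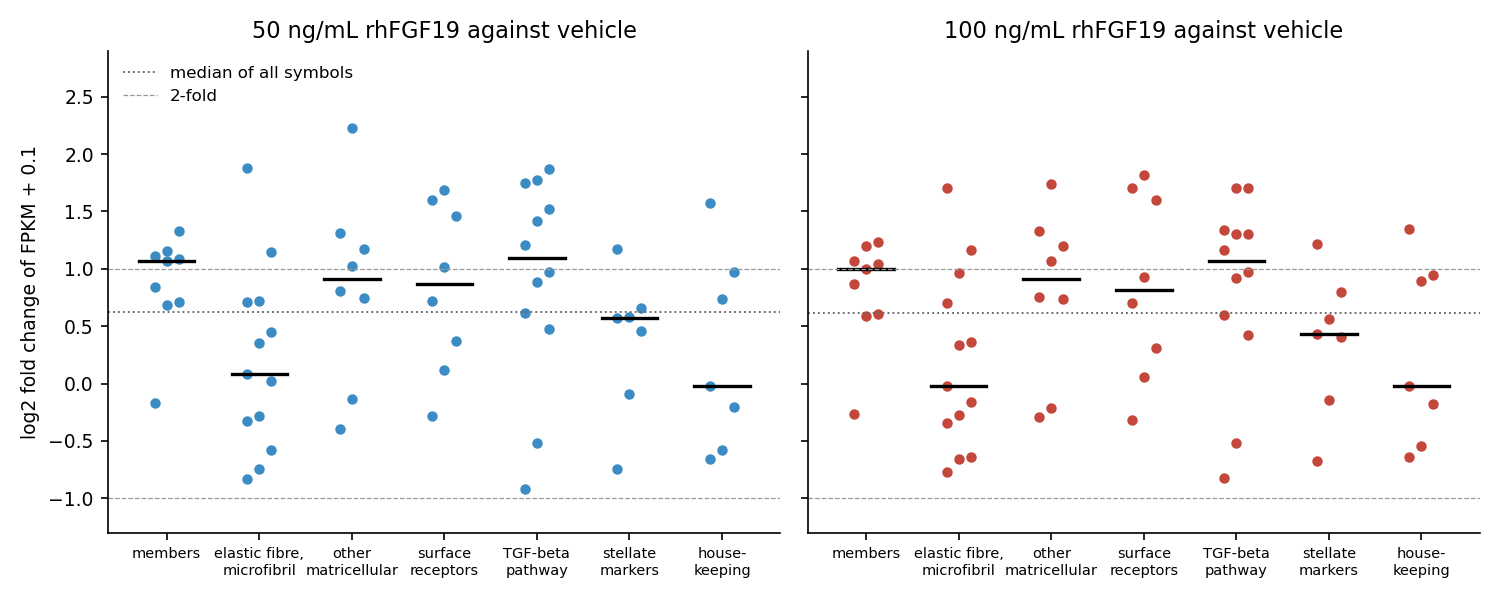
Log2 fold change against vehicle of each gene past the filter in 7 lists, at 50 ng/mL (left) and 100 ng/mL (right), with a bar at each list's median, a dotted line at the median of all symbols (0.62) and dashed lines at 2-fold. The bars of the 9 members stand at 1.07 and 1.002 and those of the elastic fibre list at 0.080 and -0.022.

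Housekeeping genes were spread more widely than the members, as the plot of fold change by list shows. Of 7 listed 7 passed, 1 was more than 2-fold higher and 0 were lower at either dose, beside 39.5% and 38.6% of all symbols higher, and the medians were -0.018 and -0.025, or -0.32 and -0.30 relative to the GC trend. HPRT1 rose (4.55, 13.7 and 11.7 FPKM), while GAPDH (5907, 3960 and 4048), ACTB (1053, 1039 and 1035), RPLP0 (1176, 746 and 752) and PPIA (287, 249 and 254) stood within 2-fold of vehicle. Of the 7 stellate cell markers that passed, 1, COL3A1 (1.79, 4.15 and 4.30 FPKM), rose at either dose, beside 39.5% and 38.6% of all symbols, and the list's medians were 0.57 and 0.43, or 0.72 and 0.59 above the GC trend.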

How the data were processed

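Poly(A) RNA of 3 LX-2 libraries was sequenced, and samples were grouped by title. The deposited FPKM values are the authors' own. The labels name HISAT2 2.0, StringTie 1.3.0 and Bowtie 0.12.2, without saying which made the table, and the builds hg19 and mm8, while 99.9% of 25531 genes found by identifier in GENCODE v29 overlapped their GRCh38 coordinates. FPKM of genes sharing a symbol was summed. Symbols averaging 0.5 FPKM or more over the libraries were compared as log2(FPKM + 0.1), a scale that understates the change of low genes, and past 2-fold was the call. No test was possible with 1 library per group. All members were named, and from each other list up to 4 genes with the highest mean FPKM and up to 3 past 2-fold at both doses with the largest smaller fold change. ITGB3, CD36, TEK, the overlapping gene and markers near 0 were named after their values were seen. A gene that this rule would name is not reported here. Members and lists were chosen with earlier results of these data known. Trends on GC content or length were loess fits (span 0.3) on GENCODE v29 transcripts. A value was said to have moved when it shifted by more than 0.32. This is the SD across symbols of the log2 difference between the rhFGF19 libraries, and says nothing of error in the vehicle library. Steps were tested on simulated data. The software was statsmodels 0.14.6, SciPy 1.17.1, pandas 2.3.3, NumPy 2.4.6 and Python 3.11.15. Other pseudocounts, filters and scalings, removal of GC or length trends and the mean of both rhFGF19 libraries were tried as alternatives, 9 in all, and GC content of the longest coding transcript was added after the data were seen.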

Additional observations from a re-analysis of the deposited data

How the results depend on the processing

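The other pseudocounts, the filters, TPM, the median ratio set to 0 and the mean of both rhFGF19 libraries left each member's log2 fold change within 0.32 of its reported value. Apart from the pseudocounts, this was largely fixed by how the settings work. A filter leaves a gene's own value as it is, and TPM and the median ratio shift all genes almost alike. The mean lies between the doses, which differed little for the members. With pseudocount 1 the genes past 2-fold were 3 at 50 and 3 at 100 ng/mL, beside 17.6% and 16.7% of all symbols higher, since a larger pseudocount shrinks low genes. With the median ratio to vehicle set to 0 they were 1 and 1, beside 29.8% and 29.2%. With the GC trend over all transcripts removed they were 0 and 0, beside 3.74% and 3.33%, with medians of 0.31 and 0.28. With the length trend removed they were 0 and 0, beside 14.0% and 13.6% of all symbols higher and 16.2% and 15.2% lower, with medians of 0.34 and 0.23. With the GC trend of the longest coding transcript removed, an alternative chosen after seeing the data, they were 0 and 0, beside 3.08% and 2.77%, with medians of 0.17 and 0.28. FBN1 changed sign to -0.052 at 50 and -0.10 at 100 ng/mL with the trend over all transcripts removed, and to -0.046 at 100 ng/mL with that of the longest coding transcript; the cause was not tested. Of members short of 2-fold, SPARC went to -0.17 and -0.13 under the latter, TNC to -0.13 and -0.21 with the length trend removed, and FBLN1 to 0.029 at 50 ng/mL with the GC trend over all transcripts removed. Length was the median over listed transcripts, many of them short. It was 550 bases for THBS1 and 673 for FBN1, against 7775 and 11756 in their longest coding transcripts. A length trend on the longest coding transcript was not tried. Removing any trend also takes out the shift shared by all symbols. Depth is unknown, so the error of low values such as those of FBN2 and FBLN1 could not be given.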
